A study of Homo sapiens with 24 samples.

Results

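MicroRNA and snoRNA host genes were examined on arrays of B-cell lymphoma cells exposed to a SYK inhibitor, to a BET inhibitor or to both. The members were all genes on the array whose symbol has the form MIR…HG or SNHG followed by a number, whatever their values. They were chosen with earlier results of these data known. There were 42 of them among 25161 gene symbols, 36 microRNA host genes and 6 snoRNA host genes (SNHG10, SNHG19, SNHG27, SNHG28, SNHG31 and SNHG32). Each had 1 row in the table. Of 32 host genes listed for a known role, 11 had a row under these symbols, and the other 21, among them MIR142HG and SNHG1, were not analysed here.

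RNA was measured on 24 Clariom D arrays, which carry probes for coding and non-coding human transcripts. SU-DHL-4 is an established line of diffuse large B-cell lymphoma of the germinal centre type, and DG-75 is a line of Burkitt lymphoma, so each disease was represented by 1 line. Exposures lasted 72 h. Cells of both lines received DMSO as the solvent control, Entospletinib (Ento) at 1 µM, which inhibits the kinase SYK downstream of the B-cell receptor, AZD5153 (AZD) at 0.01 µM, a bivalent inhibitor of BET proteins, or both at these doses (Ento+AZD). The 8 groups held 3 arrays each, described by the submitters as biological replicates.

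A microRNA host gene is transcribed into a long primary RNA, from which the Drosha and Dicer enzymes cut short hairpins and then mature microRNAs, which pair with target mRNAs through their seed and lower their translation and stability. A snoRNA host gene carries its snoRNAs in introns. They are released when the spliced intron is trimmed and then guide the chemical modification of ribosomal RNA, while the spliced host RNA is often an unstable cytoplasmic transcript. In B cells the best-known hosts are MIR17HG, an oncogenic target of MYC that carries a cluster of 6 microRNA genes starting with MIR17, MIR155HG (BIC), which is induced by antigen receptor signalling, and the miR-181 hosts of lymphocyte development.

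In human RefSeq annotation 41 members were found by symbol and 1, MIR7515HG, by an older name. 36 of the 42 held at least 1 small RNA gene within their span, 60 in all, of which 55 were microRNAs and 5 were snoRNAs. The sequences below belong to a called host between the lines (MIR181A1HG), to MIR4435-2HG, to MIR17HG as the best-known B-cell host that passed the adjusted p alone, and to the let-7 seed, which 3 members share. They are RefSeq mature microRNAs on GRCh38.p14, printed 5′ to 3′ with the seed, bases 2 to 8, in capitals. MIR181A1HG holds MIR181A1 and MIR181B1 on the minus strand, at chr1:198859108-198859130 for the first sequence and at chr1:198858925-198858947 for the second, and both share their seed:
hsa-miR-181a-5p: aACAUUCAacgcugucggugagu
hsa-miR-181b-5p: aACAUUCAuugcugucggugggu

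The same pair of mature sequences is also made from MIR181A2 and MIR181B2 in MIR181A2HG on chromosome 9. MIR17HG holds 6 microRNA genes on the plus strand of chromosome 13, the first mature sequence at chr13:91350618-91350640 and the last at chr13:91351361-91351382. miR-17 and miR-20a share one seed, and miR-19a and miR-19b share another:
hsa-miR-17-5p: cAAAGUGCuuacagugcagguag
hsa-miR-18a-5p: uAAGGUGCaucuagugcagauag
hsa-miR-19a-3p: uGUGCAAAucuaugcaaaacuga
hsa-miR-20a-5p: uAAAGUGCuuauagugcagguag
hsa-miR-19b-3p: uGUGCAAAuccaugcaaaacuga
hsa-miR-92a-3p: uAUUGCACuugucccggccugu

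MIR4435-2HG, the host with the lowest adjusted p under exposure, holds MIR4435-2 on the minus strand at chr2:111321061-111321082:
hsa-miR-4435: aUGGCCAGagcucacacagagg

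The 3 members MIRLET7BHG, MIR99AHG and MIR4500HG hold microRNAs with the seed of the let-7 family, which is known for restraining growth-promoting mRNAs. They are let-7a and let-7b in MIRLET7BHG, let-7c in MIR99AHG and miR-4500 in MIR4500HG:
hsa-let-7a-5p: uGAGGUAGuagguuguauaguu
hsa-let-7b-5p: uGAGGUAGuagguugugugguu
hsa-let-7c-5p: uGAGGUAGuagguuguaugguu
hsa-miR-4500: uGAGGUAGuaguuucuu

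All values are RMA values on a log2 scale as the authors deposited them, so that a difference of 1 is a doubling. Array medians lay between 4.89 and 5.14, and the correlation between replicates across rows was 0.981 to 0.992. The median SD of a row between replicates was 0.177 to 0.223. The 6 B-cell markers had means of 7.07 to 11.9 and all lay above the median row mean of 5.05, whereas none of the 5 T-cell markers did, 1 of 4 myeloid markers did (CSF1R) and 3 of 4 stromal or epithelial markers did (COL1A1, COL1A2 and PECAM1). Under DMSO 3 B-cell markers were called higher in SU-DHL-4, MS4A1 (4.45), CD22 (1.29) and CD79B (1.16), and so was PECAM1 (2.25), beside 7.20% of all rows called in either direction. Under Ento+AZD over both lines all 6 B-cell markers lay above 0 (median 0.33) and 4 passed the adjusted p alone, beside 1.69% of all rows higher by that rule, and CD79B was called in DG-75 (1.03), beside 0.833% of all rows. The part of these shifts in the values of the host genes was not tested. No detection value per row was used, so a low value cannot be read as expressed or not expressed. The host genes mostly had low values. Their means over the 24 arrays ran from 1.21 to 9.87, with 12 members under 3, 20 between 3 and 5, 6 between 5 and 7 and 4 over 7. The 10 members over 5 (23.8%) were the ones above the median row mean. They were SNHG32, MIR503HG, SNHG19 and MIR181A1HG over 7, and MIR4435-2HG, MIR210HG, MIR17HG, MIR1-1HG, MIR3667HG and MIR3663HG between 5 and 7. Each array measured RNA pooled from a culture, so fewer cells that use a host gene and less of its RNA per cell cannot be told apart.

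The lines were first compared under DMSO, to show in which host genes they differed before any inhibitor was added. SU-DHL-4 had more MIR181A1HG, and DG-75 had more MIR4435-2HG and SNHG31. These were the 3 members of 42 (7.14%) called at an adjusted p under 0.05 with limma and an absolute log2 difference above 1, beside 7.20% of all 25575 rows called by the same rule. With the adjusted p alone 8 members passed (19%), beside 17.6% of all rows. The share of members that differed was therefore close to that of the table as a whole. The median difference was -0.01 over the members and 0.01 over all rows.

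**Figure D1:**
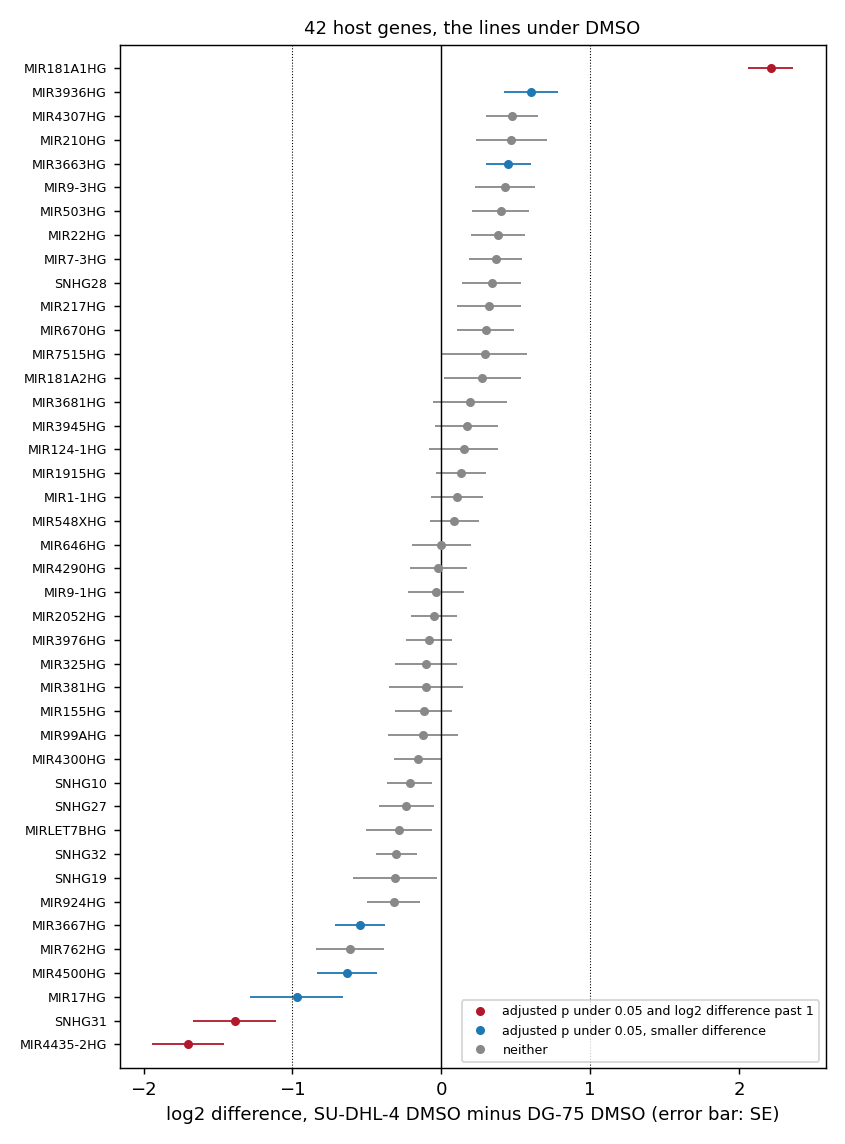
Log2 difference between SU-DHL-4 and DG-75 under DMSO for the 42 host genes, with the standard error from limma as the bar (3 arrays a line) and dotted lines at a difference of 1 in either direction. MIR181A1HG stands at 2.21, SNHG31 at -1.39 and MIR4435-2HG at -1.70, and the remaining members lie between the dotted lines.

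MIR181A1HG read 8.43, 8.50 and 8.77 in the DMSO arrays of SU-DHL-4 and 6.37, 6.28 and 6.41 in those of DG-75. The groups were far apart, and all 12 SU-DHL-4 arrays (8.25 to 8.82) lay above all 12 DG-75 arrays (5.84 to 6.60) whatever the exposure. The log2 difference under DMSO was 2.21 (SE 0.154), a 4.63-fold higher value in SU-DHL-4 (limma, adjusted p = 1.729e-10). The array also has a row for each of its hosted genes. MIR181B1 read 6.95, 7.20 and 7.22 in SU-DHL-4 and 5.49, 4.89 and 5.14 in DG-75, again without overlap, and was 3.86-fold higher in SU-DHL-4 (log2 difference 1.95, SE 0.199, adjusted p = 9.44e-08). The row of MIR181A1 lay at the low end of the scale, where a difference may not be measurable, so the lack of one there is not evidence that the lines were alike. It read 1.99, 1.61 and 2.62 in SU-DHL-4 and 1.83, 1.92 and 2.35 in DG-75, so the arrays of the lines were intermixed (difference 0.05, SE 0.219, adjusted p = 0.9312). Whether the probes of these rows measure the primary transcript, the hairpin or the mature microRNA is not given in the sources used here.

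The other copy of the locus, MIR181A2HG, did not pass the test. It read 3.87, 3.69 and 4.07 in SU-DHL-4 and 3.45, 3.75 and 3.60 in DG-75 under DMSO, with overlap between the lines (difference 0.28, SE 0.261, adjusted p = 0.5621). Whether the hosts on chromosomes 1 and 9 differed from each other in this respect was not tested.

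**Figure D2:**
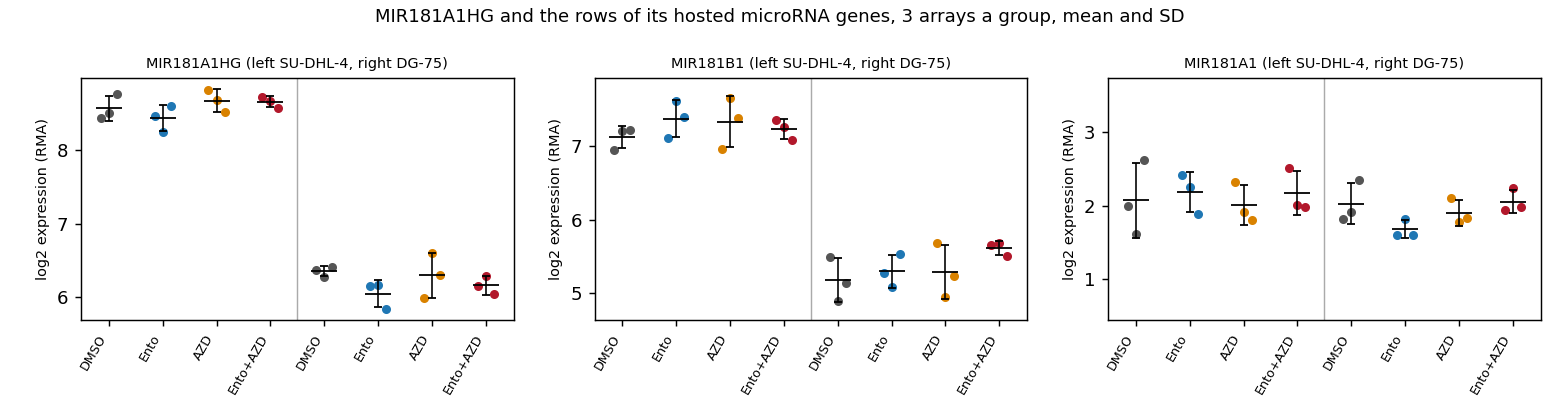
Log2 RMA values of MIR181A1HG and of the rows of MIR181B1 and MIR181A1 on each of the 24 arrays, by line and exposure, with the mean and SD of 3 arrays as bars and the same span on each vertical axis. The host and MIR181B1 separate the lines under every exposure, while the row of MIR181A1 stays between 1.61 and 2.62 in both.

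MIR4435-2HG, a long non-coding RNA described in many tumours, was lower in SU-DHL-4. Under DMSO it read 6.01, 5.81 and 6.13 there and 8.01, 7.36 and 7.68 in DG-75, with no overlap (difference -1.70, SE 0.244, 3.25-fold, adjusted p = 1.443e-05). SNHG31 read 2.68, 2.69 and 2.55 in SU-DHL-4 and 4.22, 3.36 and 4.49 in DG-75 (difference -1.39, SE 0.279, adjusted p = 0.000781). Its DG-75 replicates differed from each other by more than the SU-DHL-4 replicates did, and the SU-DHL-4 values were at the low end of the scale and are not shown to be above background, so the size of the difference may be understated. MIR181A1HG, MIR4435-2HG and SNHG31 were also the 3 members (7.14%) for which the 12 arrays of one line did not overlap with the 12 arrays of the other, beside 9.19% of all rows.

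5 further members passed the adjusted p with smaller differences. MIR17HG read 4.90, 5.49 and 5.65 in SU-DHL-4 and 6.58, 5.85 and 6.52 in DG-75, so that every DG-75 array lay above every SU-DHL-4 array (difference -0.97, SE 0.313, adjusted p = 0.03303). It just missed the fold minimum, and leaving out the second DG-75 DMSO array, the lowest of its group, took the difference to -1.20 and over that minimum, while leaving out the arrays numbered 1 took it to -0.62. Its adjusted p was over 0.05 in 6 of 16 alternatives (up to 0.1804, without the first SU-DHL-4 DMSO array). MIR3936HG (0.60) and MIR3663HG (0.45) were higher in SU-DHL-4, with adjusted p = 0.02253 and 0.04145. The adjusted p of MIR3936HG was over 0.05 in 6 of 15 alternatives (up to 0.3312, without the arrays numbered 1), and that of MIR3663HG in 12 of 16 (up to 0.4811, also without them). MIR3667HG (-0.55) and MIR4500HG (-0.63) were lower, with adjusted p = 0.02357 and 0.02944, the last among values between 1.09 and 2.11. These were over 0.05 in 6 of 16 alternatives for MIR3667HG (up to 0.3301, without the arrays numbered 3) and in 7 of 15 for MIR4500HG (up to 0.1966, without those numbered 2).

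The remaining hosts listed for a known role did not pass the adjusted p. MIR155HG read 4.94, 4.72 and 4.80 in SU-DHL-4 and 4.94, 4.86 and 5.00 in DG-75 (difference -0.12, SE 0.190, adjusted p = 0.763). MIR210HG, the host of the hypoxia-induced miR-210, differed by 0.47 (SE 0.239, adjusted p = 0.2104), MIR22HG by 0.38 (SE 0.182, adjusted p = 0.1751) and MIR503HG by 0.40 (SE 0.190, adjusted p = 0.1742). MIR99AHG (-0.12, SE 0.234, adjusted p = 0.8087) and MIRLET7BHG (-0.28, adjusted p = 0.458) had the opposite sign. SNHG32, which carries SNORD48 and SNORD52, read 9.66, 9.72 and 9.77 in SU-DHL-4 and 10.06, 10.26 and 9.75 in DG-75 (difference -0.30, SE 0.136, adjusted p = 0.1475), with the third DG-75 array inside the range of SU-DHL-4.

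The exposures were then compared with DMSO within each line, to show which host genes responded to SYK inhibition, to BET inhibition or to both. No member was called in any of these comparisons, nor in any comparison of the combination with a single agent. The DMSO arrays of a line are shared by its 3 comparisons, so the changes under Ento, AZD and Ento+AZD are given side by side and were not correlated with each other. In each comparison the members named as leading are the 3 with the smallest unadjusted p in each direction, in that order, which is not the order of size. Of 95 named changes or differences with an adjusted p of 0.05 or more, 62 moved by over 1.5 times under at least 1 alternative, so these values are descriptions of the arrays at hand. Across the 6 comparisons with DMSO the members' changes ran from -0.92 to 0.74. Their medians ran from -0.05 to 0.06, and those of all rows from -0.08 to just under zero.

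**Figure D3:**
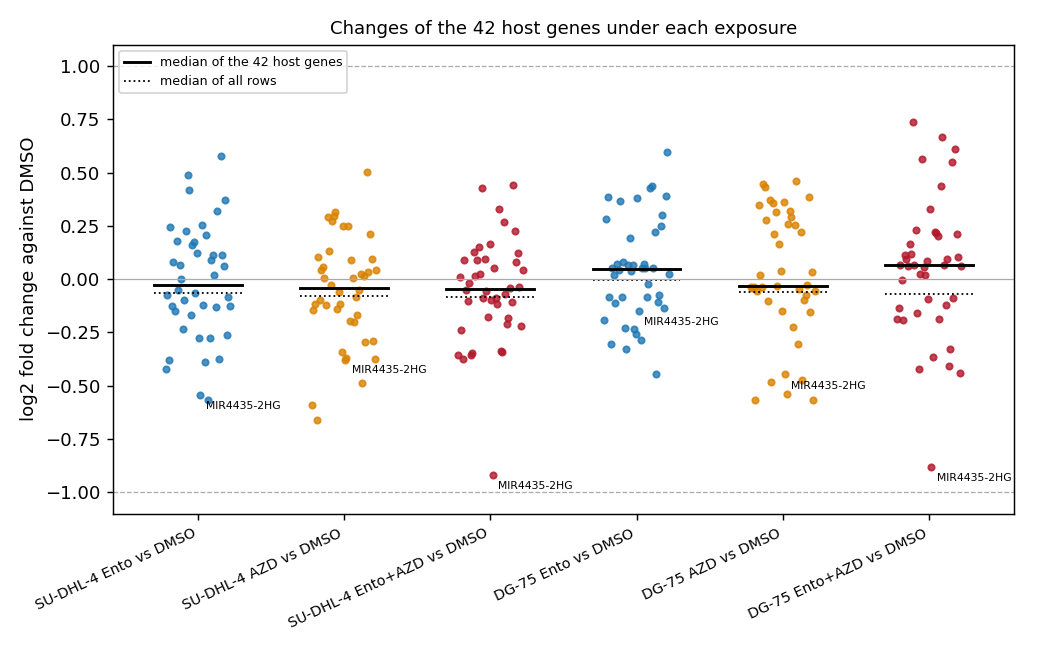
Log2 fold change of each of the 42 host genes against DMSO in the 6 comparisons of an exposure within a line, with the median of the host genes as a solid line and that of all rows as a dotted line (3 arrays a group). All points lie inside the dashed lines at a change of 1 in either direction, and MIR4435-2HG is the lowest point under Ento+AZD in both lines.

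Under Ento in SU-DHL-4, 0 of 42 members were called with limma, beside 0.0508% of all rows, and 6 (14.3%) had an unadjusted p under 0.05 (all rows 8.59%). The smallest p values among higher values belonged to MIRLET7BHG (0.58), SNHG27 (0.37) and MIR924HG (0.32), and among lower values to MIR670HG (-0.57), MIR4435-2HG (-0.54) and MIR1-1HG (-0.42). The lowest adjusted p was 0.4138, for MIR670HG. Subtracting each array's median raised the median of all rows by 0.12 here, by 0.12 under AZD and by 0.13 under Ento+AZD in SU-DHL-4, so that changes of that size in this line depend on the scaling. The shift was 0.11 for the change common to both lines under Ento+AZD and 0.10 for the difference between the lines under Ento. The shares of all rows called in SU-DHL-4 depend on the replicate number in the model. Without it 1 row was called under Ento in place of 13, 9 under AZD in place of 46, 45 under Ento+AZD in place of 304, 0 for Ento+AZD vs. Ento in place of 21 and 1 for Ento+AZD vs. AZD in place of 7.

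Under AZD in SU-DHL-4, 0 members were called, beside 0.180% of all rows, and 4 (9.52%) had an unadjusted p under 0.05 with limma (all rows 11.5%). MIRLET7BHG (0.50), MIR22HG (0.29) and MIR4300HG (0.25) led the higher values, and MIR1-1HG (-0.59), MIR9-3HG (-0.49) and SNHG31 (-0.38) the lower ones. The lowest adjusted p was 0.2272, for MIR1-1HG, the host of the muscle microRNA miR-1, which read 6.06, 5.70 and 5.77 under DMSO and 4.98, 5.38 and 5.39 under AZD without overlap.

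Under Ento+AZD in SU-DHL-4, 0 members were called, beside 1.19% of all rows, and 2 (4.76%) had an unadjusted p under 0.05 with limma (all rows 14%). MIR4435-2HG had the largest change of the members, -0.92 (SE 0.221), with an adjusted p of 0.05161 just over the threshold. By unadjusted p the next lower members were MIR670HG (-0.34) and MIR1-1HG (-0.36). MIRLET7BHG (0.44), MIR646HG (0.33) and MIR381HG (0.43) led the higher values, with adjusted p values from 0.356 to 0.4373.

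Under Ento in DG-75, 0 members were called, beside 0.00391% of all rows, and 1 (2.38%) had an unadjusted p under 0.05 with limma (all rows 2.81%). SNHG28 (0.39), MIR4307HG (0.38) and SNHG19 (0.30) led the higher values and MIR924HG (-0.45), MIR181A1HG (-0.30) and MIR3681HG (-0.33) the lower ones. Every member had an adjusted p of 1.

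Under AZD in DG-75, 0 members were called, beside 0.180% of all rows, and 6 (14.3%) had an unadjusted p under 0.05 with limma (all rows 13.8%). SNHG19 (0.39), MIR3663HG (0.37) and MIR548XHG (0.32) led the higher values, and MIR3667HG (-0.48), MIR4500HG (-0.54) and MIR17HG (-0.57) the lower ones. Their adjusted p values ran from 0.1977 to 0.3708.

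Under Ento+AZD in DG-75, 0 members were called, beside 0.833% of all rows, and 6 (14.3%) had an unadjusted p under 0.05 with limma (all rows 16.0%). SNHG19 was higher by 0.61 (SE 0.143), with an adjusted p of 0.05123 just over the threshold. MIR22HG, the host of miR-22, was higher by 0.74 (SE 0.223, adjusted p = 0.122) and MIR3936HG by 0.56 (adjusted p = 0.1259). MIR4435-2HG (-0.88, adjusted p = 0.08413), MIR924HG (-0.41) and MIR3681HG (-0.42) led the lower values.

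The combination was also set against each single agent. Against Ento in SU-DHL-4, 0 members were called, beside 0.0821% of all rows, and 2 (4.76%) had an unadjusted p under 0.05 with limma (all rows 9.67%). The leading values were MIR548XHG (0.27), MIR99AHG (0.27) and MIR670HG (0.23) on the higher side and MIR924HG (-0.36), MIR217HG (-0.41) and MIR17HG (-0.62) on the lower side. Against AZD in SU-DHL-4, 0 members were called, beside 0.0274% of all rows, and 1 (2.38%), MIR4435-2HG (-0.55), had an unadjusted p under 0.05 (all rows 7.03%). By unadjusted p MIR210HG (-0.36, and -0.03 without the first AZD array) and MIR7-3HG (-0.26, and -0.04 without the arrays numbered 2) came next, while MIR7515HG (0.44), MIR646HG (0.32) and MIR9-3HG (0.30) led the higher values.

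Against Ento in DG-75, 0 members were called, beside 0.657% of all rows, and 5 (11.9%) had an unadjusted p under 0.05 with limma (all rows 14.8%). SNHG31 had the largest change, -1.04 (SE 0.321), but an adjusted p of 0.1459. In 1 fit of all 24 arrays the change was the same, its adjusted p was 0.04788 and it was called, beside 197 of 25575 rows. The adjusted p was over 0.05 in the other 14 of 15 alternatives. Without the arrays numbered 1 the change was -0.58 (adjusted p = 0.7861), and without those numbered 3 it was -1.53. It read 4.91, 4.55 and 4.41 under Ento and 2.97, 3.44 and 4.34 under Ento+AZD, so that the third array of the combination came close to the Ento arrays. By unadjusted p MIR4435-2HG (-0.73) and MIR124-1HG (-0.42) came next, and MIR7-3HG (0.46), MIRLET7BHG (0.62) and SNHG19 (0.31) led the higher ones. Against AZD in DG-75 neither any member nor any row was called (0% of all rows), and 3 (7.14%) members had an unadjusted p under 0.05 with limma (all rows 4.03%). The leading values were MIRLET7BHG (0.62), MIR17HG (0.56) and MIR22HG (0.46), and MIR3681HG (-0.78), MIR4435-2HG (-0.43) and MIR210HG (-0.28).

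With both lines in 1 fit of all 24 arrays, the change common to the lines was estimated from 6 arrays an exposure. It is the mean of the changes in SU-DHL-4 and DG-75, so it does not require that both lines changed alike. For Ento 0 members were called, beside 0.0117% of all rows, and 2 (4.76%) had an unadjusted p under 0.05 (all rows 6.97%). SNHG19 (0.18), SNHG10 (0.18) and MIR762HG (0.28) led the higher values, and MIR670HG (-0.33), MIR1-1HG (-0.31) and MIR4435-2HG (-0.35) the lower ones. For AZD 0 members were called, beside 0.266% of all rows, and 5 (11.9%) had an unadjusted p under 0.05 (all rows 18.2%). SNHG19 (0.30, adjusted p = 0.07861), MIR22HG (0.29) and MIR548XHG (0.20) led the higher values, and MIR17HG (-0.61, adjusted p = 0.1148), SNHG31 (-0.47) and MIR1-1HG (-0.32) the lower ones. For Ento+AZD 0 members were called, beside 0.860% of all rows, and 7 (16.7%) had an unadjusted p under 0.05 (all rows 21.5%). With the adjusted p alone 1 member passed with a lower value (2.38%), MIR4435-2HG, beside 7.31% of all rows, and 1 with a higher value (2.38%), SNHG19, beside 1.69% of all rows. These shares rest on 1 gene each. By unadjusted p the next lower members were MIR670HG (-0.26) and MIR1-1HG (-0.27).

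MIR4435-2HG was lower under Ento+AZD in both lines. In SU-DHL-4 it read 6.01, 5.81 and 6.13 under DMSO and 4.57, 5.06 and 5.56 under the combination. In DG-75 it read 8.01, 7.36 and 7.68 under DMSO and 6.68, 6.74 and 6.98 under the combination. In both lines all combination arrays lay below all DMSO arrays. The common change was -0.90 (SE 0.172), a 1.86-fold lower value (limma, adjusted p = 0.00251), which stayed under the fold minimum. Without the arrays numbered 1, which hold the lowest combination value of each line, it was -0.66 with an adjusted p of 0.07603.

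The single agents gave smaller differences of the same sign. Under Ento the values were 5.36, 5.63 and 5.32 in SU-DHL-4 and 7.74, 7.45 and 7.41 in DG-75 (common change -0.35, SE 0.172, adjusted p = 0.7416). Under AZD they were 5.59, 5.19 and 6.04 in SU-DHL-4 and 6.80, 7.68 and 7.23 in DG-75 (common change -0.41, SE 0.172, adjusted p = 0.206). The AZD arrays overlapped with DMSO in both lines. The difference between the lines in the change under Ento+AZD was -0.04 (SE 0.345, adjusted p = 0.9961).

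The value of MIR4435-2HG may contain signal of a near-identical gene. CYTOR, a long non-coding RNA that carries the other copy of the miR-4435 gene, arose from a duplication on the same chromosome, and the deposited rows do not show how probes common to the copies were assigned. CYTOR is no member and was named after its values were seen. Over the 24 arrays the rows of MIR4435-2HG and CYTOR correlated at r = 0.953 (Spearman 0.925), at 0.914 within the 12 DG-75 arrays and at 0.565 within the 12 SU-DHL-4 arrays, as a description of arrays that share line and exposure. Under DMSO CYTOR was itself lower in SU-DHL-4 (-2.46, SE 0.286, adjusted p = 6.981e-07). Under Ento+AZD it fell by 1.06 on the log2 scale in DG-75 (SE 0.182, adjusted p = 0.02137), where it read 7.90, 7.77 and 7.98 under DMSO and 6.70, 6.67 and 7.08 under the combination, and its change common to both lines was -0.90 (SE 0.140, adjusted p = 0.0004238). The part of CYTOR in the value of MIR4435-2HG was not tested. The row of the hosted MIR4435-2 was at the low end of the scale. Its means of 3 arrays were 2.50 under DMSO and 2.94 under Ento+AZD in SU-DHL-4, and 2.85 and 2.56 in DG-75. The lines moved in opposite directions, and the mean change over both was 0.07 (SE 0.126, limma, adjusted p = 0.822).

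**Figure D4:**
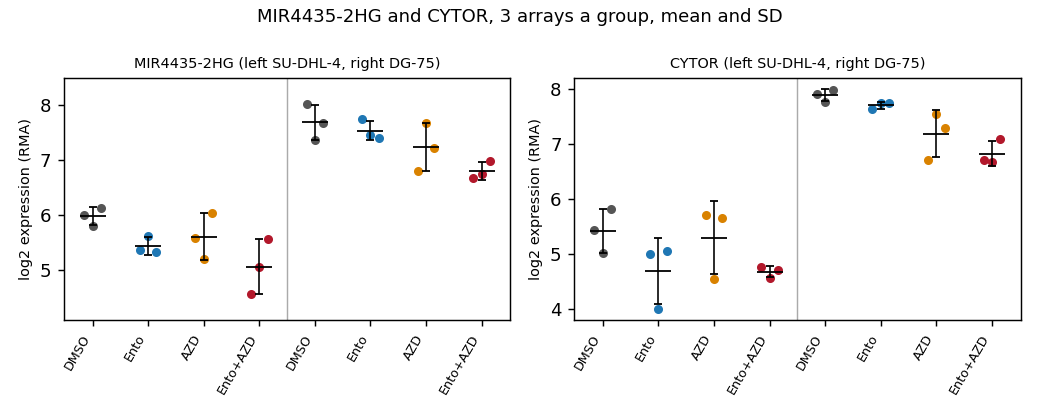
Log2 RMA values of MIR4435-2HG and of its near-identical copy CYTOR on each of the 24 arrays, by line and exposure, with the mean and SD of 3 arrays as bars and the same span on both vertical axes. Both rows are higher in DG-75, and their Ento+AZD arrays lie below the DMSO arrays of the same line.

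SNHG19, which carries SNORD60, was the second host that passed the adjusted p over both lines under Ento+AZD, with a common change of 0.35 (SE 0.0943, limma, adjusted p = 0.02663). Most of it came from DG-75, where it read 7.58, 7.58 and 7.35 under DMSO, 7.84, 7.78 and 7.79 under Ento, 7.97, 7.93 and 7.77 under AZD, and 8.37, 8.26 and 7.72 under Ento+AZD. All exposed arrays of DG-75 lay above its DMSO arrays. In SU-DHL-4 it read 7.40, 6.73 and 7.46 under DMSO and 7.39, 6.78 and 7.66 under Ento+AZD, and the array numbered 2 was the lowest of every exposure in that line. The change in SU-DHL-4 was 0.08 (SE 0.145) against 0.61 in DG-75, a difference between the lines of -0.53 (SE 0.189, adjusted p = 0.5644). The adjusted p of the common change was over 0.05 in 12 of 21 alternatives, and highest without the replicate number as a term in the model (0.3575).

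The row of SNORD60 itself did not pass the test. It read 9.40, 9.43 and 9.69 under DMSO and 9.77, 9.41 and 9.87 under Ento+AZD in DG-75, with overlap between the groups, and its common change was 0.14 (SE 0.101, adjusted p = 0.4919). None of the remaining snoRNA hosts passed under the combination over both lines. The common change was 0.05 for SNHG32 (SE 0.0862), 0.07 for SNHG10 (SE 0.102), 0.03 for SNHG28 (SE 0.136) and 0.17 for SNHG27 (SE 0.133), with adjusted p values from 0.5284 to 0.9347. It was -0.33 for SNHG31 (SE 0.191, adjusted p = 0.3473), with the DG-75 combination arrays spread from 2.97 to 4.34.

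MIR17HG had a lower mean under AZD than under DMSO in both lines, without passing the adjusted p. In SU-DHL-4 it read 4.90, 5.49 and 5.65 under DMSO and 4.33, 4.81 and 4.92 under AZD, where the groups overlapped by 1 array. In DG-75 it read 6.58, 5.85 and 6.52 under DMSO and 5.71, 5.82 and 5.73 under AZD, with all AZD arrays below. The common change was -0.61 (SE 0.214, adjusted p = 0.1148). Under Ento+AZD in DG-75 the values were 6.74, 5.98 and 6.22, which overlapped with DMSO (adjusted p = 0.9979).

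In SU-DHL-4 the combination arrays of MIR17HG split. They read 5.85, 4.48 and 4.59, the first above all DMSO arrays and the others below them (change -0.37, SE 0.326, adjusted p = 0.683). Without the arrays numbered 1 the change was -1.04 with an adjusted p of 0.03424, and without those numbered 3 it was -0.03 with an adjusted p of 0.9976, so that its size depended on which arrays were kept. The 6 microRNA genes of the cluster were not among the rows analysed here, so the host could not be compared with them.

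MIRLET7BHG had values above DMSO under the combination in both lines. In SU-DHL-4 it read 2.85, 3.13 and 2.79 under DMSO and 3.63, 3.03 and 3.44 under Ento+AZD, with overlap. In DG-75 it read 3.44, 3.44 and 2.76 under DMSO and 3.71, 3.98 and 3.58 under Ento+AZD, without overlap. The common change was 0.50 (SE 0.154, adjusted p = 0.05248). For the other hosts of the let-7 seed the common change was -0.22 in MIR99AHG (SE 0.153, adjusted p = 0.4591) and -0.16 in MIR4500HG (SE 0.137, adjusted p = 0.5758). MIR4500HG lay at the low end of the scale on all arrays, between 1.07 and 2.11.

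MIR22HG read 3.64, 3.40 and 3.49 under DMSO and 3.83, 4.58 and 4.33 under Ento+AZD in DG-75, and 3.79, 4.09 and 3.79 against 4.20, 3.91 and 3.95 in SU-DHL-4. Its groups were separate in DG-75 and overlapped in SU-DHL-4 (common change 0.43, SE 0.137, adjusted p = 0.05724). The common change was -0.09 for MIR155HG (SE 0.137) and for MIR210HG (SE 0.167), 0.07 for MIR503HG (SE 0.137) and 0.03 for MIR181A2HG (SE 0.143), with adjusted p values from 0.7886 to 0.9395. MIR181A1HG, the host with the largest difference between the lines, had means of 8.57 under DMSO and 8.66 under Ento+AZD in SU-DHL-4 and of 6.36 and 6.16 in DG-75 (common change -0.05, SE 0.109, adjusted p = 0.8473).

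**Figure D5:**
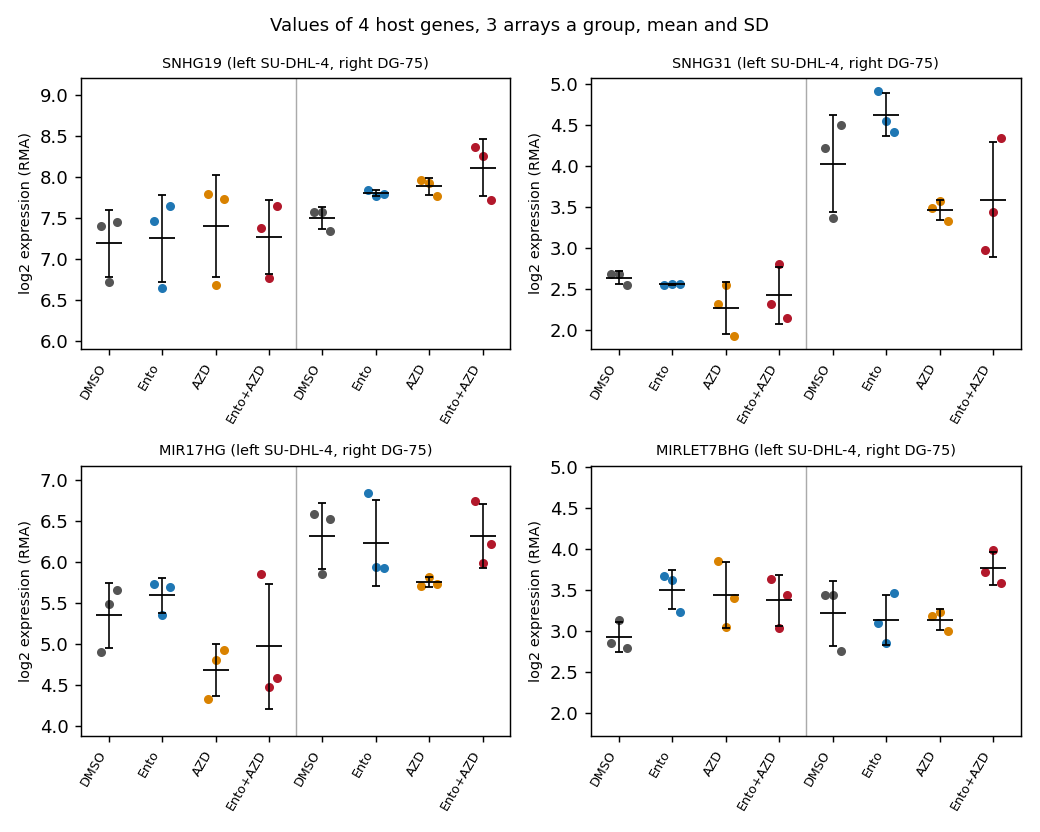
Log2 RMA values of SNHG19, SNHG31, MIR17HG and MIRLET7BHG on each of the 24 arrays, by line and exposure, with the mean and SD of 3 arrays as bars and the same span on each vertical axis. SNHG19 has 1 low array in every exposure of SU-DHL-4 (6.66 to 6.78), SNHG31 separates the lines, and the Ento+AZD arrays of MIR17HG in SU-DHL-4 are spread from 4.48 to 5.85.

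How far the lines differed in their responses was tested directly, as the change in SU-DHL-4 minus that in DG-75. No member was called. For Ento 0 members and 0.00782% of all rows were called, and 8 (19%) members had an unadjusted p under 0.05 with limma (all rows 4.43%), while the adjusted p was 0.9995 for the lowest of them. The leading values were MIR924HG (0.77), MIR3681HG (0.82) and MIRLET7BHG (0.65), and MIR155HG (-0.77), MIR4307HG (-0.66) and SNHG28 (-0.65). MIR155HG, for which receptor signalling is the known inducer, read 4.35, 4.10 and 4.86 under Ento in SU-DHL-4 and 5.77, 5.40 and 4.79 in DG-75, with the third array of each line near its DMSO arrays.

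For AZD neither members nor rows were called (0% of all rows), and 5 (11.9%) members had an unadjusted p under 0.05 with limma (all rows 6.16%). MIR3667HG (0.75, adjusted p = 0.5141), MIR4500HG (0.79) and MIR924HG (0.49) led the positive differences, and MIR4307HG (-0.74), MIR9-3HG (-0.71) and MIR1-1HG (-0.55) the negative ones. For Ento+AZD 0 members were called, beside 0.0352% of all rows (9 rows, and 1 without the replicate number in the model), and 4 (9.52%) had an unadjusted p under 0.05 (all rows 6.51%). The leading values were SNHG10 (0.31), MIR4500HG (0.42) and MIR924HG (0.37), and MIR7-3HG (-0.78, adjusted p = 0.4652), SNHG19 (-0.53) and MIR3936HG (-0.65).

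Rows for the hosted small RNAs themselves were present for 42 of the 60 genes, in 29 members. Many of them lay at the low end of the scale, where a difference may not be measurable. Under DMSO in SU-DHL-4 the means were 1.14 for MIR384, 1.06 for MIR4307 and 1.25 for MIR539, while others such as MIR1915 (7.11) lay higher. Few calls are therefore not evidence that the small RNAs were unchanged. None of the 42 was called in any comparison with an exposure. Under Ento+AZD over both lines 3 of 42 had an unadjusted p under 0.05 with limma, beside 21.5% of all rows. Their changes there ran from -0.37 for MIR503 to 0.28 for MIR181A2, with a median of 0.04. Between the lines under DMSO 1 hosted row of 42 was called, MIR181B1, beside 7.20% of all rows, and 5 had an unadjusted p under 0.05, beside 27.6% of all rows. MIR503HG and its microRNA gene gave no called difference in either comparison. MIR503 differed by 0.17 between the lines (SE 0.266, adjusted p = 0.7568).

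Genes that process these RNAs were read beside the hosts. Of 14 microRNA processing genes none was called under Ento+AZD over both lines, and 2 passed the adjusted p alone, both lower, beside 7.31% of all rows lower by that rule. They were PRKRA (-0.62, adjusted p = 0.004119), a partner of Dicer, and AGO2 (-0.34, adjusted p = 0.03693), the slicing Argonaute. The median of the list was -0.19, beside -0.07 over all rows.

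Of 16 snoRNP proteins and assembly factors none was called and 3 passed the adjusted p alone under the combination over both lines, all lower, beside the same 7.31% of all rows. The common change was -0.43 for FBL (adjusted p = 0.004534), the methyltransferase of box C/D snoRNPs, -0.71 for GAR1 (adjusted p = 0.04843), of box H/ACA snoRNPs, and -0.40 for the assembly helicase RUVBL2 (adjusted p = 0.01574). The median of the list was -0.12, beside -0.07 over all rows, and this gap was not tested. In nonsense-mediated decay, the pathway that degrades many spliced snoRNA host RNAs, 1 of 10 genes passed, the helicase UPF1 (-0.38, adjusted p = 0.02374), and the median was -0.09.

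Between the lines under DMSO no gene of these 3 lists was called, beside 7.20% of all rows, and 17.6% of all rows passed the adjusted p alone. All 16 snoRNP values were lower in SU-DHL-4, with a median of -0.45 beside 0.01 over all rows, and 6 passed the adjusted p alone, among them NOP56 (-0.89), DKC1 (-0.72) and NOLC1 (-0.77). Of the microRNA processing genes 3 were lower, DGCR8 (-0.93), DICER1 (-0.60) and AGO2 (-0.50), and AGO4 was higher (0.69), each by adjusted p alone. Of the decay genes SMG1 (-0.79) and SMG5 (-0.58) were lower and UPF3A (0.55) was higher. GAS5, the only one of 7 other non-coding hosts to pass, was lower in SU-DHL-4 (-0.64, SE 0.105, adjusted p = 7.919e-05), and none of those 7 passed under Ento+AZD over both lines.

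Protein-coding hosts of microRNAs held the only call under exposure among these lists of other hosts and processing genes. MCM7, a subunit of the replicative helicase whose introns carry the miR-106b-25 cluster, fell by 1.07 on the log2 scale under Ento+AZD in SU-DHL-4 (SE 0.222, limma, adjusted p = 0.02862), 1 call among 15 such hosts beside 1.19% of all rows. Without the replicate number in the model this call was lost (adjusted p = 0.203). In DG-75 it passed the adjusted p alone (-0.84, SE 0.134, adjusted p = 0.01958), and its common change was -0.95 (adjusted p = 0.0002236). Of the 15 such hosts 4 passed over both lines by adjusted p alone, MCM7, SMC4 (-0.35) and PANK2 (-0.33) with lower values and COPZ1 (0.30) with a higher one, beside 7.31% of all rows lower and 1.69% higher, and the median of the list was -0.20. Between the lines under DMSO none was called and 5 passed the adjusted p alone, beside 17.6% of all rows, COPZ1 (0.89) and PANK1 (0.54) with higher values in SU-DHL-4 and PANK2 (-0.75), PANK3 (-0.62) and HUWE1 (-0.44) with lower ones.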

How the data were processed

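RNA of SU-DHL-4 and DG-75 cells was measured on 24 arrays, 3 in each of 8 groups. The deposited table holds RMA-normalised log2 values per transcript cluster, which the authors made from the scanner intensities. The submitters' processing notes name RMA and limma, and the genome build and annotation version are not given in the sources used here. Scanner files were not used, so probe-level background could not be checked. All 25575 rows were used, 0 columns of per-sample values were left out, and no filter on low values was applied. The number of arrays limits the precision. Differences were tested with limma 3.58.1 in R 4.3.3, with Benjamini-Hochberg adjustment over all rows. Each line was fitted on its 12 arrays with the replicate number as batch, since the study's methods include a batch term that they do not define. The change common to both lines is the mean of the changes in each line. It and the difference between lines came from 1 fit of the 24 arrays with the replicate number within line. The comparison of the lines under DMSO came from a fit without that number. Calls needed an absolute log2 difference over 1 together with an adjusted p under 0.05. Scripts were tested on simulated data.

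Members were all symbols of the given form. Named with values were called members, the 3 members with the smallest unadjusted p in each direction of each treatment comparison, members listed for a known role, their hosted rows and up to 4 called genes of each other list, although some genes that passed the adjusted p alone are also named and were chosen after their values were seen. The other lists were microRNA processing, snoRNP proteins, nonsense-mediated decay, other non-coding hosts, protein-coding microRNA hosts and cell type markers. Members and lists were chosen with earlier results of these data known. Alternatives covered the batch term, 1 fit of all arrays, low rows, scaling, prior variance, duplicate rows, the fold minimum and leaving out arrays.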

Additional observations from a re-analysis of the deposited data

How the results depend on the processing

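Of 2113 values recomputed under alternatives for 122 results, 2098 kept their direction and side of the joint rule, or their count within 1.5 times. The joint rule is that of adjusted p and fold, and 0 single changes reversed. Most results were uncalled in the main fit, so keeping that side was nearly fixed in advance and says little about stability. Of 95 named changes with an adjusted p of 0.05 or more, 62 moved by over 1.5 times. Passes by adjusted p alone were lost more often, as given beside each such member. Without a fold minimum 2 members passed under Ento+AZD over both lines, beside 2302 of 25575 rows, and 8 between the lines under DMSO, beside 4507 rows. In 1 fit of all 24 arrays 1 member, SNHG31, was called for Ento+AZD vs. Ento in DG-75 (-1.04, limma, adjusted p = 0.04788). Of all 25575 rows 197 were called in that fit, in place of 168 in the main fit. Leaving out arrays gave 0 to 1 members under Ento+AZD in SU-DHL-4, where MIR17HG was called without the arrays numbered 1, beside 270 of 25575 rows. Over both lines, leaving out arrays gave 0 to 1 members. There MIR4435-2HG was called without the second DG-75 DMSO array (-1.01, beside 254 rows), without the arrays numbered 2 (-1.01, 166 rows) or 3 (-1.03, 257 rows). Between the lines, leaving out arrays gave 3 to 4 members. MIR17HG was added without the second DG-75 DMSO array (-1.20), the third SU-DHL-4 DMSO array (-1.12) or the arrays numbered 2 (-1.27). The difference of MIR17HG was -0.62 without the arrays numbered 1. Its adjusted p ran from 0.01586 to 0.1804. With rows under the median mean left out 10 members were tested and SNHG31 was not among them. Over all alternatives the change of MIR4435-2HG under Ento+AZD over both lines ran from -1.03 to -0.66, with the adjusted p over 0.05 only without the arrays numbered 1, and that of SNHG19 from 0.30 to 0.47, with the adjusted p over 0.05 in 12 of 21. A fit of the 6 DMSO arrays alone was added after the data were seen and left the calls between the lines within that range.

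The replicate numbers are not stated to pair the arrays, and pairing was described but not tested. Deviations of arrays with the same number correlated at -0.111 to 0.394 in SU-DHL-4 (12 of 18 pairs above 0.1). In DG-75 they correlated at -0.355 to 0.344 (7 of 18). Among the 3 numbers, 9 and 8 of 12 arrays correlated best with their own, and no chance level was computed. Without the replicate block 0 members were called in each treatment comparison, and with it 3 members were called between the lines under DMSO. Over all rows fewer calls were made without the block in each SU-DHL-4 comparison, as given there, and under Ento+AZD in DG-75 they went from 213 to 208. The call of MCM7 in SU-DHL-4 was lost (adjusted p = 0.203), an alternative added after the data were seen, and its adjusted p was 0.01048 in DG-75 and 0.004364 over both lines.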
